A study of Mus musculus with 12 samples.

Results

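Myostatin and IGF growth signalling is described here through 10 named genes: the secreted growth inhibitor Mstn (myostatin), the muscle gene Mss51, the receptor gene Acvr2b, the antagonist gene Fst (follistatin), the growth factors Igf1 and Igf2, their receptor Igf1r, and the binding proteins Igfbp3, Igfbp4 and Igfbp5. Members were all probe sets whose array annotation gives exactly 1 of these symbols. The rule found 27 of the 45037 probe sets, for 9 of the 10 genes, and 25 of the 27 passed a filter on dim signals. None of the probe sets used carried the symbol Mstn, so Mstn was not analysed here. Igfbp4 had 6 probe sets, Igf1r 5, Igf1 4, Acvr2b 3, Fst, Igf2, Igfbp3 and Igfbp5 2 each, and Mss51 1.

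The samples were quadriceps muscles of C57Bl/6J mice treated for 6 days with AICAR at 250 mg/kg/day, with GW1516 at 5 mg/kg/day, with GW1516 plus AICAR at the same doses, or with vehicle. AICAR is an adenosine analogue that activates AMP-activated protein kinase, the energy sensor of the cell, and GW1516 is an agonist of the nuclear receptor PPARδ. Each of the 12 arrays, 3 per group, carried RNA pooled from 3 mice of its group, and no genetic change is labelled in any group. Nothing in the labels says whether any mouse went into more than 1 pool, and what the p-values capture is pool-to-pool spread. The labels used here state neither sex nor age.

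Myostatin is made by muscle fibres and restrains their growth: it binds the activin type II receptors, of which Acvr2b encodes one, and signals through SMAD proteins, while follistatin binds and blocks it. IGF1 and IGF2 act in the opposite direction through the receptor encoded by Igf1r, the kinase AKT and mTOR, and AKT also holds FOXO factors inactive. The IGF-binding proteins carry IGFs outside the cell and can block or prolong their action. Mss51, also called Zmynd17, is a skeletal muscle gene that is lower when myostatin signalling is blocked in mice, and its loss in mouse muscle has been linked to higher oxidative metabolism.

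The promoter of Mss51 is shown because Mss51 carried the change that passed the test, and that of Igf1 for the growth factor with the next smallest p in the same comparison. Each is the 250 bases before the annotated gene start, from RefSeq on GRCm38.p6, at chr14:20496902-20497151 on the minus strand and chr10:87860861-87861110 on the plus strand, written 5′ to 3′. Capitals mark matches to the motifs searched on both strands: the SMAD palindrome GTCTAGAC, the FOXO core GTAAACA, the nuclear receptor half-site AGGTCA, and the direct repeat of that half-site with 1 base between the copies, which contains it.
Mss51 promoter: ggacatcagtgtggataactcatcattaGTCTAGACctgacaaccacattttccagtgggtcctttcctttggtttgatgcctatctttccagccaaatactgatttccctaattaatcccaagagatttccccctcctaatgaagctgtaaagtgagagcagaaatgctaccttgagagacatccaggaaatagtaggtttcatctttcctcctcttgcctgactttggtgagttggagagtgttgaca
Igf1 promoter: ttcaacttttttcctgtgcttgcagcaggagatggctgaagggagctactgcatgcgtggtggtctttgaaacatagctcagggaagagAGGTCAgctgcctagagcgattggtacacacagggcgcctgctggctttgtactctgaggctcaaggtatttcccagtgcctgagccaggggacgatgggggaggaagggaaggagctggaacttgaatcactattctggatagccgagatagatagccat
The Mss51 window held the SMAD palindrome from 222 to 215 bases before the start, as did 0.169% of 32536 mouse promoters of this length (55 in number), and it held none of the other letters searched. The Igf1 window held 1 half-site, from 161 to 156 bases before the start, as did 14.0% of the promoters. Among the members 3 of 12 windows held the half-site, for the genes Igf1, Igf1r and Igf2. The direct repeat was in 0.0338% and the FOXO core in 3.17% of promoters, and neither was in any of the 12 windows matched, which cover 9 of the 10 genes, Mstn included and Fst not, with 4 windows for Igf2. The palindrome was added to the search with the Mss51 sequence in view, and a match is a description of letters, not of binding.

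Signals are MAS5 values on a linear scale, every array having a trimmed mean of 200. Differences are on the log2 scale, and each gene is represented by its brightest probe set among 12771 genes tested with limma, with Benjamini-Hochberg adjustment over all of them and a call at an adjusted p under 0.05. The median difference of all genes lay between -0.02 and 0.03 in every comparison, and over all genes the standard error of a 3 against 3 comparison had a median of 0.19. The second GW1516 array stood apart from the others, with a score of 0.81 on a first principal component that held 13.4% of the variance. All 8 muscle fibre markers were tested, with summed signals of 180183 to 227454 over the 12 arrays. Of the hepatocyte markers, Apoa1 and Ttr did not pass the filter, and Alb signals were 40.8 to 88.6.

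Mss51 was lower in muscle of mice that received GW1516, with or without AICAR. The probe set of Mss51 (1432001_at) read 448, 406 and 623 in the GW1516 arrays, 364, 653 and 451 in the GW1516 plus AICAR arrays, 1181, 750 and 896 with AICAR alone, and 885, 813 and 873 with vehicle. All 6 arrays with GW1516 lay below all 6 without it, and 1 of the 9 members had no overlap in this grouping, against a background of 0.760% of genes. Averaged over both AICAR backgrounds, Mss51 fell by 0.89 ± 0.15 on the log2 scale (SE, 6 arrays with GW1516 against 6 without; 95% interval -1.21 to -0.58; 1.86-fold lower; limma, adjusted p = 0.0237). It was the 1 member of 9 called in any comparison, beside a background of 0.149% of genes called for the average GW1516 effect, 19 in all, of which 4 (0.0313%) were lower. The members were chosen with earlier results of these data known, so these shares are not a test of the list. In whole muscle, fewer cells of a type and less RNA per cell cannot be told apart.

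The fall in Mss51 was of similar size on both backgrounds, while single comparisons of 3 arrays with 3 did not pass. Mss51 averaged 492 ± 115 in GW1516 arrays against 857 ± 38.4 in vehicle arrays (signal, SD, n = 3 each), a difference of -0.82 ± 0.21 (limma, adjusted p = 0.252). It averaged 489 ± 148 in GW1516 plus AICAR arrays against 942 ± 219 in AICAR arrays, a difference of -0.96 ± 0.21 (limma, adjusted p = 0.467, the 9th smallest p of 12771). Against vehicle the combination stood at -0.85 ± 0.21 (limma, adjusted p = 0.144). The comparisons with vehicle share the 3 vehicle arrays. The arrays did not overlap in any of these 3 comparisons, where 14.2% (GW1516 against vehicle), 14.5% (combination against AICAR) and 18.6% (combination against vehicle) of all genes had no overlap.

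AICAR gave Mss51 no difference that passed. AICAR against vehicle stood at 0.11 (95% interval -0.34 to 0.56; limma, adjusted p = 0.940), and the combination against GW1516 at -0.03 (95% interval -0.48 to 0.42; limma, adjusted p = 0.976). In the order of levels, GW1516 plus AICAR and GW1516 were thus neighbours within their spread, as were vehicle and AICAR. AICAR directly against GW1516 differed by 0.94 ± 0.21 (limma, adjusted p = 0.264), again with no overlap of arrays, as for 14.6% of genes. The interaction was -0.14 (95% interval -0.77 to 0.50; limma, adjusted p = 0.941).

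The call on Mss51 was near its threshold. It was lost without the variance trend (limma, adjusted p = 0.209), with the difference at -0.89. With 1 array left out in turn the average GW1516 effect stayed between -1.01 and -0.80, but the adjusted p lay above 0.05 without AICAR replicate 1 or 3 (limma, adjusted p = 0.0718 and 0.0668), combination replicate 1 or 3 (0.0539 and 0.0937) or any 1 of the vehicle replicates (0.0847, 0.0715 and 0.0924). It was -0.83 without the second GW1516 array (limma, adjusted p = 0.0444), and the F test over the 4 groups did not call Mss51 (adjusted p = 0.128), with 0 of 9 members called against 0.110% of genes and 3 at an unadjusted p under 0.05, beside 10.4% of genes.

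The genes whose log2 signal followed that of Mss51 most closely over the 12 arrays were Ergic3 (Pearson r = 0.89), Cadm3 (r = 0.89) and Kif5c (r = 0.88), picked as the highest of all genes tested. Their average GW1516 effects were -0.20, -1.17 and -0.52 on the log2 scale. The 12 arrays share the 4 treatments, so these values describe a common pattern over groups and arrays.

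**Figure D1:**
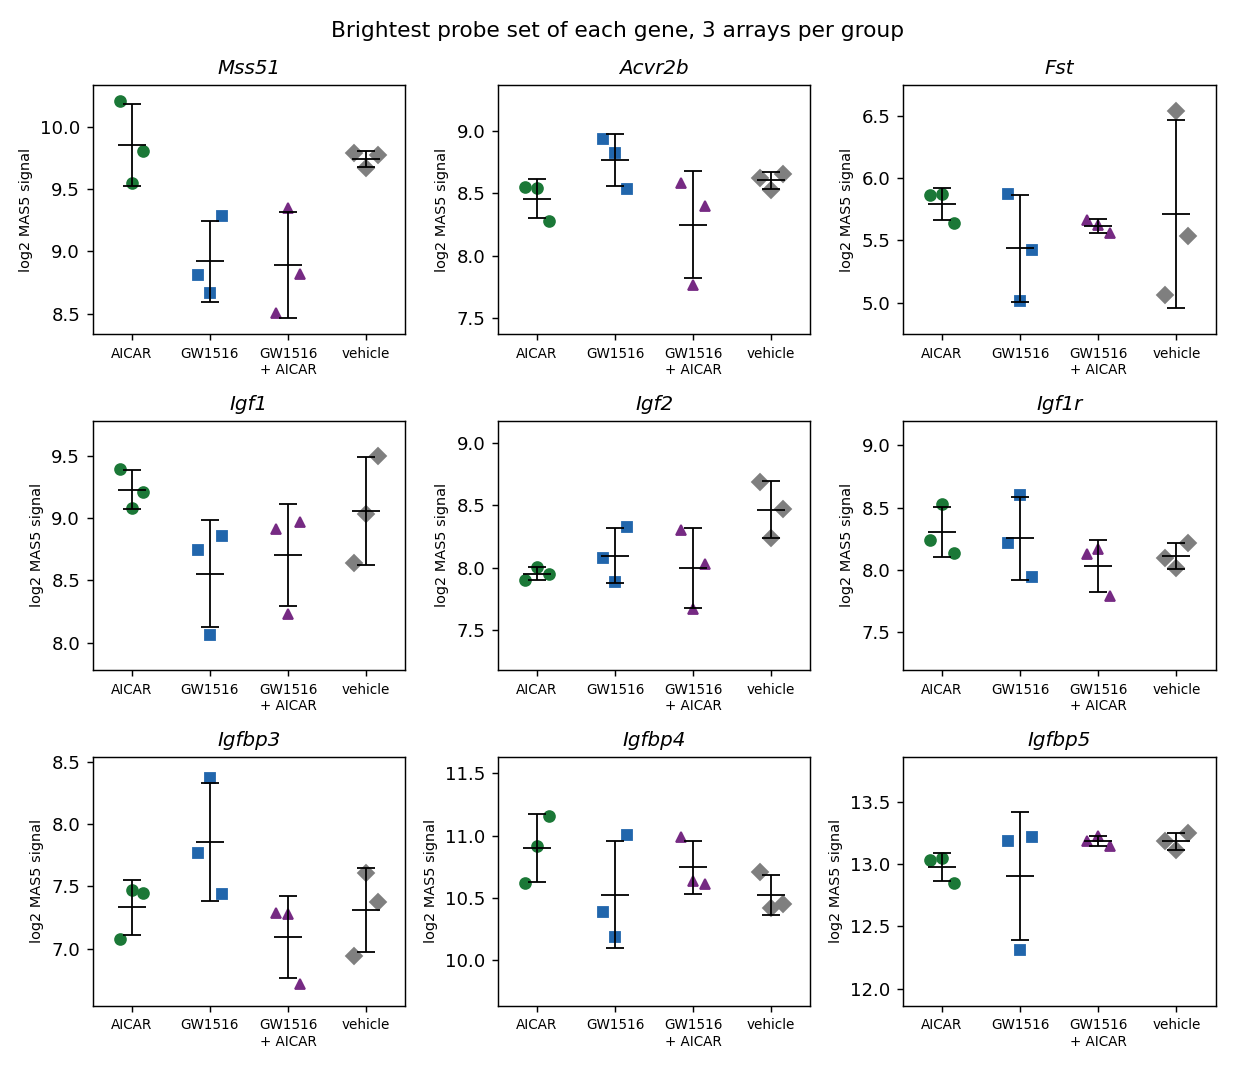
Log2 MAS5 signal of the brightest probe set of each of the 9 genes, with 3 arrays per group as points and the group mean ± SD as bars; each panel has its own vertical range of at least 2 log2 units. The GW1516 and GW1516 plus AICAR arrays of Mss51 lie between signals of 364 and 653, below the AICAR and vehicle arrays, which lie between 750 and 1181.

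Of the myostatin receptor and antagonist, neither passed the test in any comparison. Acvr2b (1419140_at) read 384, 218 and 337 in GW1516 plus AICAR arrays against 491, 452 and 371 in GW1516 arrays, and 375, 373 and 310 in AICAR arrays against 395, 369 and 404 in vehicle arrays. Combination replicate 2 was the lowest of the 12, and the arrays of the groups overlapped in both pairs. The average AICAR effect on Acvr2b was -0.33 ± 0.13 (limma, unadjusted p = 0.0202, adjusted p = 0.391). It was -0.21 without combination replicate 2 and -0.16 for the mean of the Acvr2b probe sets. The average GW1516 effect was -0.02 (95% interval -0.29 to 0.25). A second probe set of Acvr2b stood at 0.02 for AICAR and -0.26 for GW1516, and the remaining one was under the filter at signals of 8.55 to 28.6.

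Fst, whose product neutralises myostatin and activins, was dim. Its brighter probe set (1434458_at) read 58.3, 58.4 and 49.9 in AICAR arrays, 58.5, 32.3 and 42.9 in GW1516 arrays, 50.6, 49.4 and 47.1 in GW1516 plus AICAR arrays, and 33.3, 93.0 and 46.4 in vehicle arrays. The vehicle arrays held both a higher and a lower value than any combination array, and no comparison passed, with an average GW1516 effect of -0.23 (95% interval -0.80 to 0.35). The other Fst probe set (1421365_at) went the opposite way, at 0.82 for the average GW1516 effect and 1.35 for the combination against vehicle (limma, unadjusted p = 0.0454, adjusted p = 0.434), from signals of 58.3, 49.5 and 30.4 in combination arrays against 11.3, 12.5 and 37.3 in vehicle arrays. The probe sets disagree in direction for the average GW1516 effect and for the combination against vehicle, so no direction is given for Fst there. For the average AICAR effect both lay above 0, at 0.13 and 0.53, with 95% intervals of -0.44 to 0.70 and -0.40 to 1.47.

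Among the growth factors, Igf1 was the member with the next smallest p after Mss51 for the average GW1516 effect. For GW1516 against vehicle, Igf2 and Igfbp3 had smaller p than Igf1 (limma, unadjusted p = 0.0471, 0.0441 and 0.0601). Its brightest probe set (1434413_at) read 428, 267 and 464 in GW1516 arrays, 481, 300 and 500 in GW1516 plus AICAR arrays, 671, 540 and 593 in AICAR arrays, and 399, 523 and 724 in vehicle arrays. GW1516 replicate 2 was the lowest of the 12 arrays, and the GW1516 and vehicle arrays overlapped. The average GW1516 effect was -0.51 ± 0.17 (95% interval -0.89 to -0.14; limma, unadjusted p = 0.0104, adjusted p = 0.397), and AICAR directly against GW1516 differed by 0.67 ± 0.25 with no overlap (limma, adjusted p = 0.474), as for 2 of the 9 members and 14.6% of all genes. This difference was 0.43 without GW1516 replicate 2 and 0.42 for the mean of the Igf1 probe sets. All 4 probe sets of Igf1 had an average GW1516 effect below 0, from -0.51 to -0.28, also with quantile normalization and median centring. Probe sets of 1 gene read the same RNA pools and are not separate samples.

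For AICAR the probe sets of Igf1 split, 2 above and 2 below 0, with an average AICAR effect from -0.04 to 0.16. The combination and AICAR arrays of Igf1 did not overlap (difference -0.53 ± 0.25; limma, adjusted p = 0.687), as for 3 of the 9 members and 14.5% of all genes, and the difference was -0.29 without combination replicate 2. Without GW1516 replicate 2, Igf1 stood at -0.26 for GW1516 against vehicle, compared with -0.50 for all arrays, and at -0.39 for the average GW1516 effect. The genes most like Igf1 over the 12 arrays were Fam126a (Pearson r = 0.93), Treml1 (r = 0.91) and Ifi35 (r = 0.90).

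Matrix and macrophage markers were lowest on the array with the lowest Igf1, GW1516 replicate 2. Fibroblast and matrix markers, 9 of 9 tested, had a median of -0.22, -1.39 and 0.02 against the vehicle mean in the GW1516 arrays, -0.13, -0.28 and -0.18 in the combination arrays, 0.19, 0.14 and -0.03 with AICAR alone, and -0.02, 0.14 and -0.19 with vehicle. Their summed signal was 16512 to 34814 in GW1516 arrays against 30276 to 40384 in vehicle arrays, and all 9 lay below 0 for the average GW1516 effect (54.3% of all genes did), with a median of -0.38, 0 called by limma and 3 at an unadjusted p under 0.05 (9.51% of all genes). The 7 macrophage markers summed to 980 on GW1516 replicate 2, where all 7 were below the vehicle mean, against 1395 to 1781 in vehicle arrays. The part of these cells in the Igf1 and Mss51 values was not tested.

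**Figure D2:**
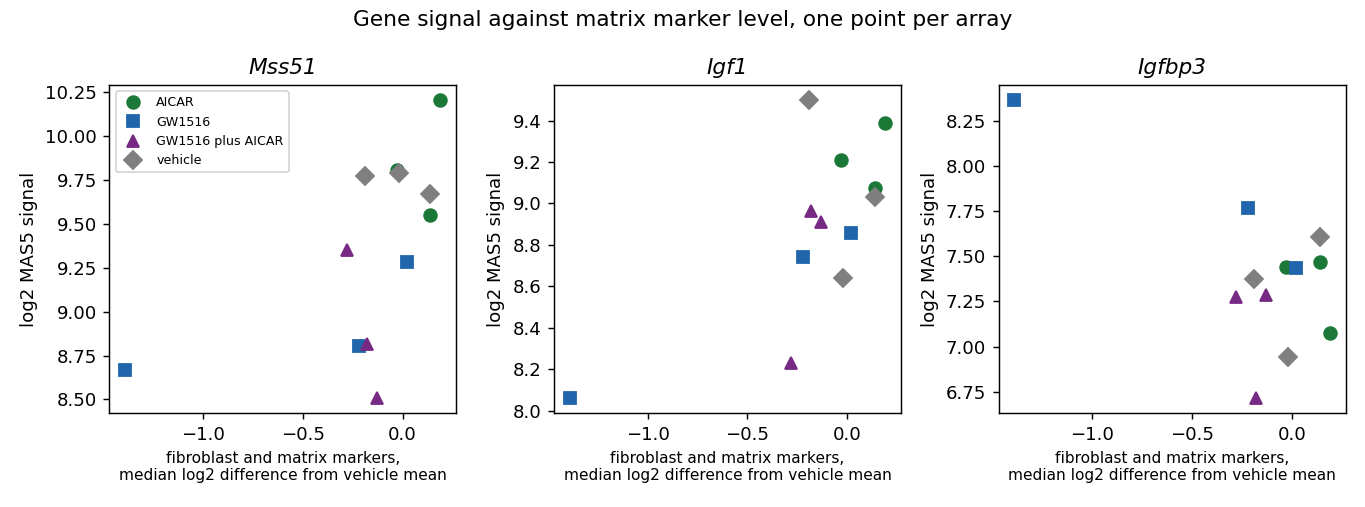
Log2 MAS5 signal of Mss51, Igf1 and Igfbp3 (vertical axes) against the median log2 difference of 9 fibroblast and matrix markers from the vehicle mean (horizontal axes), 1 point per array, with marker shape and colour for the 4 groups. GW1516 replicate 2, at -1.39, stands far left with the lowest Igf1, the highest Igfbp3 and a low Mss51 signal (406); the other 5 arrays with GW1516, all low in Mss51, lie between -0.28 and 0.02.

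Igf2, the growth factor of fetal muscle that is also made by differentiating myoblasts, was lower on average in each of the drug groups than with vehicle without passing the test. Its probe set past the filter (1448152_at) read 239, 257 and 247 in AICAR arrays, 270, 236 and 320 in GW1516 arrays, 316, 203 and 261 in GW1516 plus AICAR arrays, and 412, 301 and 355 in vehicle arrays. The AICAR arrays lay close together and below every vehicle array, and the other groups each overlapped with vehicle by 1 array. Against vehicle, AICAR stood at -0.51 ± 0.17 (limma, unadjusted p = 0.00936, adjusted p = 0.593), GW1516 at -0.37 ± 0.17 (unadjusted p = 0.0471, adjusted p = 0.515) and the combination at -0.46 ± 0.17 (unadjusted p = 0.0163, adjusted p = 0.334), or -0.30 without combination replicate 2. The 3 comparisons share the vehicle arrays. For AICAR against vehicle, 2 of the 9 members, Igf2 and Igfbp5, had no overlap, a share near the 18.3% of all genes, and 0.00783% of genes were called.

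The drug groups differed less from each other than from vehicle in Igf2. AICAR against GW1516 was -0.14 (95% interval -0.51 to 0.22), the combination against AICAR 0.05 (95% interval -0.32 to 0.41) and the interaction 0.42 ± 0.24 (limma, adjusted p = 0.766). The second Igf2 probe set, under the filter, read 9.51, 5.29 and 7.04 in AICAR arrays against 34.3, 9.38 and 17.3 in vehicle arrays, too dim to rank.

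Igf1r, the receptor that carries the IGF signal into the fibre, showed no difference past the test in any comparison. Its brightest probe set (1452982_at) read 302, 369 and 282 in AICAR arrays, 297, 388 and 246 in GW1516 arrays, 280, 288 and 222 in GW1516 plus AICAR arrays, and 274, 259 and 298 in vehicle arrays. The groups overlapped throughout, and the 95% interval of the average effect was -0.27 to 0.24 for AICAR and -0.32 to 0.19 for GW1516. The 5 probe sets ranged from -0.24 to 0.14 for the average AICAR effect and from -0.42 to 0.05 for the average GW1516 effect.

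Among the binding proteins, Igfbp3, the main carrier of IGFs in blood, read highest on GW1516 replicate 2 and passed the test in no comparison. Its brightest probe set (1458268_s_at) read 156, 155 and 105 in GW1516 plus AICAR arrays against 218, 330 and 173 in GW1516 arrays, and 135, 177 and 174 in AICAR arrays against 123, 195 and 166 in vehicle arrays. The combination arrays all lay below the GW1516 arrays, a difference of -0.76 ± 0.25 (limma, unadjusted p = 0.00821, adjusted p = 0.337), and 1 of the 9 members had no overlap there, against 12.8% of genes. GW1516 against vehicle stood at 0.55 ± 0.25 (limma, adjusted p = 0.510) and the interaction at -0.78 ± 0.35 (limma, unadjusted p = 0.0419, adjusted p = 0.746). Without GW1516 replicate 2, the array of 330, these values were -0.51, 0.29 and -0.53. The other probe set of Igfbp3 read 112, 255 and 70.2 in GW1516 arrays against 85.6, 90.8 and 59.1 in vehicle arrays, with the same array highest.

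Igfbp4, which in most settings inhibits IGF action, stood above 0 for AICAR in every probe set without passing. The brightest (1437405_a_at) read 1573, 1935 and 2289 in AICAR arrays against 1672, 1369 and 1398 in vehicle arrays, and 2031, 1593 and 1565 in GW1516 plus AICAR arrays against 1337, 1167 and 2059 in GW1516 arrays. The groups overlapped in both pairs, GW1516 replicate 3 being the highest of the 6 arrays of the second pair. The average AICAR effect was 0.30 ± 0.13 (limma, unadjusted p = 0.0424, adjusted p = 0.460), and over the 6 probe sets it ranged from 0.18 to 0.38. With median centring, which moves the AICAR arrays down as a whole, the 6 still lay above 0, from 0.07 to 0.26. The average GW1516 effect was -0.08 (95% interval -0.36 to 0.21).

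Adipocyte markers differed between arrays of the same group, as did Igfbp4. The median of 6 adipocyte markers, of 8 listed (Plin1 and Cfd were not among the genes tested), was -0.03, 1.08 and 1.79 in the AICAR arrays, where Igfbp4 was 1573, 1935 and 2289, and 0.65, -0.01 and 1.29 in the GW1516 arrays, where it was 1337, 1167 and 2059. In the combination arrays it was 1.55, 0.57 and -0.08, and in the vehicle arrays 0.48, -0.49 and -0.16. Within each of the 4 groups the array with the highest Igfbp4 was the array with the highest adipocyte median. Their summed signal was 6454 to 18540 in AICAR arrays, 6523 to 13177 in GW1516 arrays and 6229 to 14606 in combination arrays, against 4943 to 10689 in vehicle arrays, and their part in the Igfbp4 values was not tested.

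Igfbp5, a binding protein that muscle cells make as they differentiate, was lower on every AICAR array than on every vehicle array, without passing the test. In this comparison 18.3% of all genes had no overlap. Its brightest probe set (1452114_s_at) read 8360, 8484 and 7385 in AICAR arrays, 9291, 5072 and 9522 in GW1516 arrays, 9329, 9601 and 9052 in GW1516 plus AICAR arrays, and 9297, 8851 and 9747 in vehicle arrays. The difference of AICAR against vehicle was -0.20 ± 0.17 (limma, adjusted p = 0.846), and GW1516 replicate 2 was the lowest of the 12. The other probe set (1422313_a_at) read 1576, 2107 and 1474 in AICAR arrays against 2525, 2520 and 2425 in vehicle arrays, also with no overlap, a difference of -0.55 ± 0.22 (limma over 27022 probe sets, unadjusted p = 0.0246, adjusted p = 0.619). In GW1516 plus AICAR arrays it read 2386, 2017 and 3312, and its interaction was 0.78 ± 0.31 (limma, unadjusted p = 0.0249, adjusted p = 0.773). For the brightest probe set the interaction was 0.49 ± 0.25 and, without GW1516 replicate 2, 0.19. The average AICAR effect was 0.04 for the brightest probe set of Igfbp5 and -0.16 for the other.

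**Figure D3:**
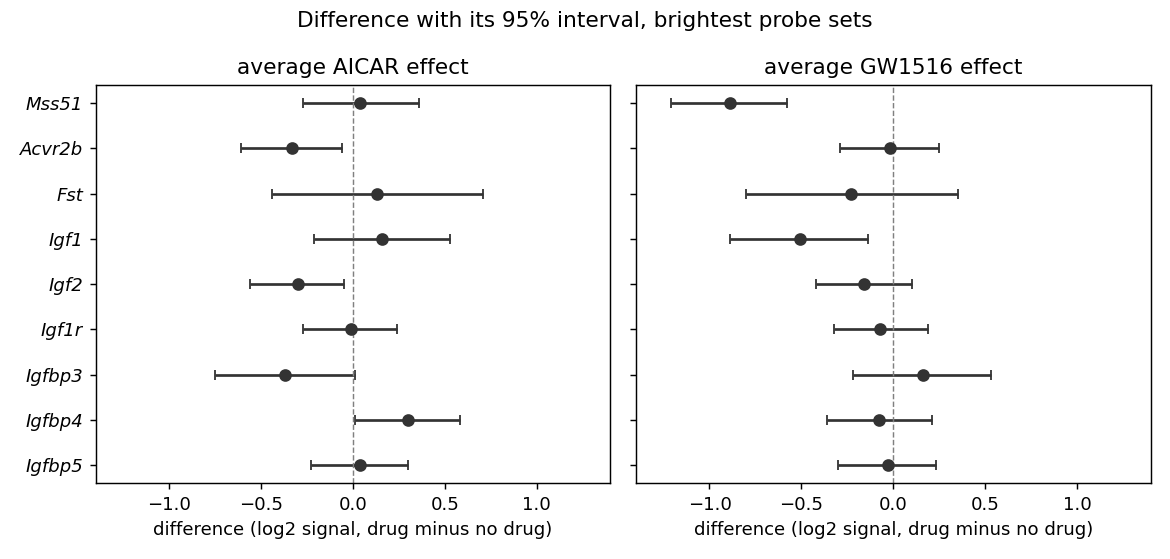
Average effect of AICAR (left) and of GW1516 (right) on the brightest probe set of each gene, in log2 signal, as points with 95% intervals from limma over 6 arrays with the drug and 6 without. Mss51 at -0.89 for GW1516 is the 1 difference called after adjustment over 12771 genes; the interval of Igf1 for GW1516 also lies below 0, from -0.89 to -0.14, but was not called.

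**Figure D4:**
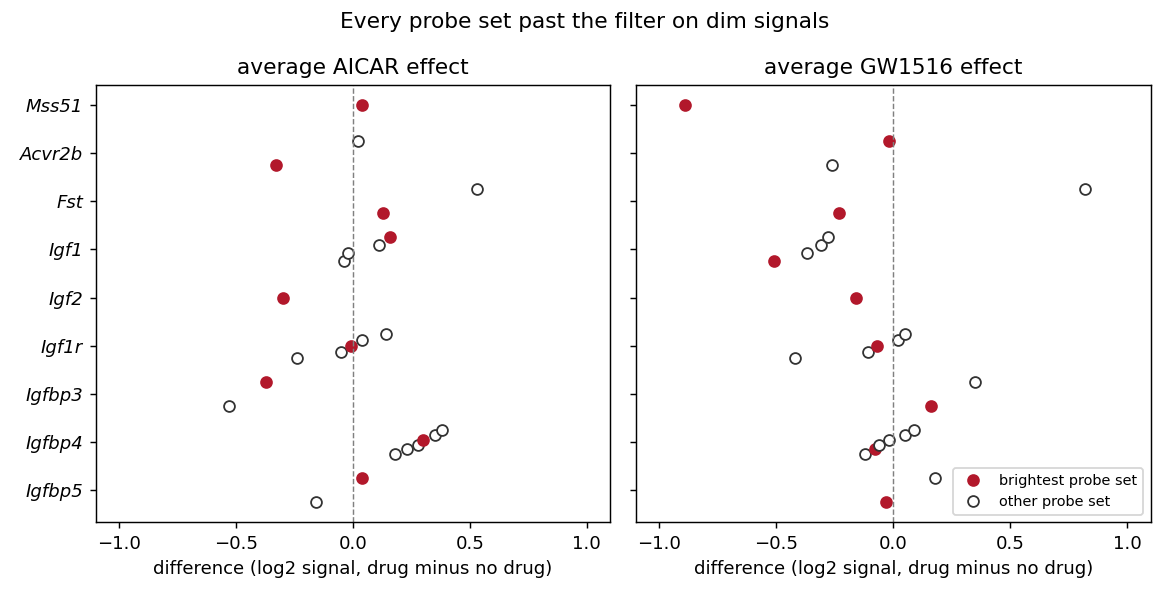
The same average effects for every probe set past the filter, 25 in all, with the brightest of each gene filled and the others open. The 4 Igf1 probe sets lie left of 0 for GW1516 and the 6 Igfbp4 probe sets right of 0 for AICAR, while those of Fst lie on both sides for GW1516, at -0.23 and 0.82.

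In single comparisons 0 of 9 members were called, where limma called 0.00783% of genes for AICAR against vehicle, 0.0940% for GW1516 against vehicle, 0.258% for the combination against vehicle, 0.0313% for the combination against AICAR, and 0% both for the combination against GW1516 and for AICAR against GW1516. At an unadjusted p under 0.05 there was 1 member for AICAR against vehicle (6.93% of genes), 3 for GW1516 against vehicle (9.64%) and 2 for the combination against vehicle (10.9%). There was 1 for the combination against AICAR (7.32%), 2 for the combination against GW1516 (10.4%) and 2 for AICAR against GW1516 (9.15%).

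Across the brightest probe sets of the 9 members, 8 lay below 0 for the average GW1516 effect, with a median of -0.08, where 54.3% of all genes lay below 0 with a median of -0.02. Among these 8, Fst, Igf1r, Igfbp4 and Igfbp5 each also had other probe sets above 0. Acvr2b, at -0.02, turned to 0.02 with median centring. For the average AICAR effect 4 of 9 lay below 0, with a median of 0.04, against 47.5% of all genes and a median of 0.01. At an unadjusted p under 0.05, 3 members stood for AICAR (Acvr2b, Igf2 and Igfbp4) and 2 for GW1516 (Mss51 and Igf1), beside 10.4% and 9.51% of genes. After adjustment 0 of 9 were called for the average AICAR effect, against 0.0313% of genes. No member was called by limma in the interaction either, where 0% of genes were called and 1 member, Igfbp3, stood at an unadjusted p under 0.05, beside 6.64% of genes.

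Among the genes tested in the wider pathways, 1 gene was called. In the activin and TGF-beta list, 45 of 53 genes were tested, and in the list of IGF, insulin and mTOR genes 43 of 51, with 0 called in either direction for any comparison with vehicle or either average effect (limma). Their medians were -0.05 and 0.05 for the average GW1516 effect, with 6 of 45 and 10 of 43 genes at an unadjusted p under 0.05, beside 9.51% of all genes. For the average AICAR effect the medians were -0.01 and -0.02, with 7 of 45 and 4 of 43 genes, beside 10.4% of all genes. In the list of FOXO and atrophy genes 22 of 22 were tested. For the average AICAR effect 1 was called higher and 0 lower (0.0313% of all genes were called), with a median of -0.03 against 0.01 for all genes. For the average GW1516 effect 0 of 22 were called (0.149% of all genes), with 7 at an unadjusted p under 0.05 (9.51% of all genes). The median of the list was then 0.16, against -0.02 for all genes.

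The called gene was Foxo1, which encodes a FOXO factor whose protein AKT inhibits downstream of IGF1. It read 645, 709 and 667 in AICAR arrays, 307, 660 and 532 in GW1516 arrays, 763, 910 and 717 in GW1516 plus AICAR arrays, and 262, 254 and 276 in vehicle arrays. Every drug array lay above every vehicle array, where 18.3% (AICAR), 14.2% (GW1516) and 18.6% (combination) of all genes had no overlap with vehicle. Against vehicle, AICAR stood at 1.35 ± 0.20 and GW1516 at 0.85 ± 0.20, neither called (limma, adjusted p = 0.0561 and 0.252). Foxo1 rose by 1.59 ± 0.20 in the combination against vehicle (limma, adjusted p = 0.00405). Averaged over both GW1516 backgrounds it rose by 1.04 ± 0.14 with AICAR (limma, adjusted p = 0.0138), where the arrays overlapped through GW1516 replicate 2, and the average GW1516 effect was 0.54 ± 0.14 (limma, adjusted p = 0.286).

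Other genes of these lists had smaller differences, none past the threshold. On the IGF side, Ddit4l, an inhibitor of mTOR signalling, read 2790, 1975 and 2895 in GW1516 arrays and 2621, 2676 and 2281 in combination arrays, against 3552, 3629 and 3331 in vehicle arrays. The vehicle arrays lay above all of them, with differences of -0.48 ± 0.12 and -0.47 ± 0.12 (limma, adjusted p = 0.252 and 0.158). They also lay above the AICAR arrays of Ddit4l, at 2747, 2840 and 2686, a difference of -0.34 ± 0.12 (limma, adjusted p = 0.618). In these comparisons with vehicle 14.2% (GW1516), 18.6% (combination) and 18.3% (AICAR) of all genes had no overlap. Grb14, an adaptor that inhibits the insulin receptor, had an average GW1516 effect of -0.44 (limma, adjusted p = 0.309), Akt2, an AKT kinase of insulin signalling, one of 0.20 (adjusted p = 0.369), and Eif2b5, a subunit of a translation initiation factor, one of 0.26 (adjusted p = 0.266).

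On the activin side, Fstl1, a secreted follistatin-like protein, read 725, 380 and 818 in GW1516 arrays and 656, 544 and 560 in combination arrays, against 874, 887 and 741 in AICAR arrays and 917, 866 and 709 in vehicle arrays. GW1516 replicate 2 was again the lowest, and the average GW1516 effect was -0.47 (limma, adjusted p = 0.380). Ltbp1, which holds latent TGF-beta in the matrix, stood at -0.54 and Inha, the inhibin alpha subunit, at -0.35 (limma, adjusted p = 0.380 and 0.399). Bmp1, a protease that frees myostatin from its latent complex, had an average AICAR effect of 0.39 (limma, adjusted p = 0.295) and stood at -0.45 for GW1516 against vehicle. In the list of FOXO and atrophy genes, Bnip3, Atf4 and Cdkn1b stood at 0.37, 0.28 and -0.55 for GW1516 against vehicle (limma, adjusted p = 0.436, 0.436 and 0.416).

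Markers of the remaining cell types that whole muscle holds had no gene called. The 7 endothelial markers had a median of 0.00 for the average GW1516 effect and -0.06 for AICAR, and the 4 satellite cell markers tested, of 5, a median of 0.15 and 0.01. Satellite cell markers summed to 1353 to 1508 in GW1516 arrays against 1157 to 1278 in vehicle arrays, which do not overlap, and to 1230 to 1363 in combination arrays, which overlap with vehicle. For GW1516 against vehicle 3 of these markers lay above 0 and 1 below, and 14.2% of all single genes had no overlap. The 3 smooth muscle markers tested, of 4, had medians of 0.06 for GW1516 and 0.04 for AICAR, and the 8 muscle fibre markers 0.09 and 0.07.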

How the data were processed

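Quadriceps RNA of 4 groups was measured on 12 arrays. The deposited values are array intensities, MAS5 signals per the submitters' processing notes, whose version is not given in the sources used here; every array has a trimmed mean of 200 with 2% taken off each end. Array background and saturation flags were not used here, and the number of arrays limits the precision. Probe sets were named from a 2016 platform annotation: of 45037 without controls, 34945 had 1 symbol, 932 several and 9160 none.

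Signals under 1 were set to 1, log2 was taken, the dimmest 40% of probe sets (under a signal of 28.2) were left out, and the brightest probe set stood for a gene. limma 3.58.1 in R 4.3.3 fitted 4 group means with a variance trend (8 residual and 5.91 prior degrees of freedom), 9 two-sided contrasts and an F test. Probe sets were also tested one by one, over 27022. An average effect is the mean of a drug's differences with and without the other drug. The code was tested on simulated data. Named genes were all members, up to 4 of each pathway list (genes called, then smallest F test p), and the 3 genes most correlated with Mss51 and Igf1. The members and lists were chosen with earlier results of these data known. The alternatives covered normalization, floor, filter, probe sets, variance model, weights, threshold, replicate number and single arrays. Figures used matplotlib 3.10.9 in Python 3.11.15.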

Additional observations from a re-analysis of the deposited data

How the results depend on the processing

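For the average GW1516 effect the count of members called was 1, and it was 0 without the variance trend and 0 with the replicate block, and between 0 and 1 when 1 array was left out in turn. Mss51 itself ranged from -0.90 to -0.76 over the other alternatives, with limma's adjusted p between 0.0102 and 0.209 over 23 alternatives, 14 of which called it. Without the trend its adjusted p was 0.209, and the cause was not tested. In the 8 other contrasts and the F test 0 members were called, also with each array left out (range 0 to 0).

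At an unadjusted p under 0.05 the count of the 9 members was 1 for AICAR against vehicle, beside 6.93% of all genes. It was 3 for GW1516 against vehicle (9.64% of genes) and 2 for the combination against vehicle (10.9%). Against AICAR the combination had 1 (7.32%), and against GW1516 it had 2 (10.4%). AICAR against GW1516 had 2 (9.15%) and the interaction 1 (6.64%). There were 3 for the average AICAR effect (10.4%), 2 for the average GW1516 effect (9.51%) and 3 for the F test (10.4%).

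The replicate numbers shared by the groups did not pair the arrays: deviations from the group means correlated by -0.11 to 0.07 for the 18 pairs with the same number and by -0.07 to 0.09 for the 36 others. With the replicate block Mss51 stood at -0.89 (limma, adjusted p = 0.0695), and the count of members called was 0.

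With median centring the median of all genes lay between -0.12 and 0.02 over the 9 contrasts, and small differences not called changed sign with it, such as Mss51 for the average AICAR effect (0.04 against -0.07) and Igfbp5 (0.04 against -0.08). Signals near the filter, as for Fst, limit what can be ranked. Fitting just the groups compared was not run for contrasts that need all 4 groups.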
